A study of Mus musculus with 9 samples.

Results

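The genes described here are 8 transcripts of the prolactin axis of the mammary epithelium, measured in milk fat: the prolactin receptor Prlr, the kinase Jak2, the transcription factors Stat5a, Stat5b, Elf5 and Gata3, and the feedback inhibitors Socs2 and Cish. They were chosen by symbol, are 8 of the 11206 genes listed in at least 1 library, and each has its own identifier in the tables. In the lactating mammary gland, prolactin binds its receptor on secretory epithelial cells, the receptor-bound JAK2 phosphorylates STAT5, and STAT5 dimers enter the nucleus and switch on milk protein genes. ELF5, an ETS-family factor, is needed for the alveolar lineage and for milk protein synthesis, and GATA3 maintains luminal epithelial identity. CISH and SOCS2 are induced by STAT5 and damp cytokine receptor signalling, so their transcripts are widely read as outputs of the pathway.

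The samples were milk fat from 9 first-lactation female mice of the outbred ICR (CD1) stock, 1 library per dam, taken on lactation day 10. Milk fat globules carry crescents of secretory cell cytoplasm, so RNA in the fat layer can be read without a biopsy. The 4 high fat diet dams ate a diet with 60% of energy from fat (5.24 kcal per gram), and the 5 control diet dams ate one with 10% of energy from fat (3.85 kcal per gram). Both diets gave 7% of energy as sucrose. Feeding began at 4 weeks of age, 4 weeks before mating, and continued through pregnancy and lactation. No genotype, drug or hormone treatment differed between the diets. Dams shared cages in pairs within a diet before mating and the labels do not say which, so dams are treated as separate samples. The comparison asks how the diet of the dam relates to the mammary transcripts that reach the milk.

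Levels are FPKM, fragments scaled to transcript length and to the mapped fragments of the library, and a gene at or below 1 FPKM has no row in the authors' tables. Such a gene is called unlisted here. The high fat diet libraries listed 7974, 5124, 2075 and 4986 genes (replicates 1 to 4), and the control diet libraries listed 8487, 7098, 8903, 8695 and 8746 (replicates 1 to 5). The means were 5040 ± 2409 (SD, n = 4) and 8386 ± 735 (SD, n = 5), a difference with an exact 2-sided permutation p of 0.0159. Relative depth, estimated from the confidence bounds, ran from 0.823 to 1.59 on the high fat diet and from 1 to 1.21 on the control diet, in units of control diet 1. High fat diet 4, with 4986 listed genes, had the highest relative depth of the 9. The precision of a level was taken as the squared ratio of FPKM to its bound-derived standard deviation. Its median over listed genes was 28.6, 13.0, 7.64 and 27.8 in the high fat diet libraries. In the control diet libraries it was 20.0 to 41.1. Of 8 secretory luminal markers, 6 to 8 were listed on the high fat diet and 8 on the control diet, with summed levels of 4001 to 17452 FPKM on the high fat diet and 9506 to 19370 FPKM on the control diet. In the fit described further on, 3 of these 8 were lower on the high fat diet, where 20.8% of all tested genes were. They were Krt18 (log2 fold change -2.42, limma adjusted p = 0.0403), Epcam (-2.49, adjusted p = 0.0181) and Cldn3 (-2.64, adjusted p = 0.0110). Krt8, Csn2, Wap, Lalba and Btn1a1 were not called, and limma called 0 genes after the scaling described further on. Of 8 basal and myoepithelial markers, 0 to 2 were listed on the high fat diet and 2 to 3 on the control diet, summing to 0 to 6.06 FPKM on the high fat diet and 4.22 to 9.39 FPKM on the control diet. Acta2 and Krt14 were the ones listed most often, and Krt5 and Trp63 were unlisted in all 9 libraries. The 7 T and B cell markers and the 5 fibroblast markers were also unlisted in all 9.

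STAT5 binds palindromic gamma-interferon-activated sites, written TTCNNNGAA, whose reverse complement has the same letters, so 1 search covers both strands. This motif was searched from 250 bases before to 50 bases after each RefSeq transcript start (GRCm38.p6). It occurred in 2726 of 32851 such windows, 8.3%, and at least 2 copies occurred in 150 of them, 0.457%. Windows were available for 7 of the 8 genes, 12 windows in all, and 2 of the 12 held the motif. With positions counted from base 1 of the transcript, a window of Prlr held 1 copy, starting at position -110. The window of Cish held 2 non-overlapping copies, starting at positions 1 and 12. Of the STAT5 target genes listed further on, 13 of 20 had a window, 18 windows in all, and 6 of the 18 held the motif. Those 6 belonged to 5 genes, among them the beta-casein gene Csn2, with a copy starting at position -93. These 3 stretches are shown because they hold the only copies found among the 8 genes, beside a copy at a milk protein gene. Each is given 5′ to 3′ on the gene's strand with the motif in capitals. The Prlr stretch lies at chr15:10223786-10223815 (plus strand), the Cish stretch at chr9:107296654-107296683 (plus strand) and the Csn2 stretch at chr5:87699499-87699528 (minus strand).
Prlr: gcaaaatgagTTCTAGGAAtaagggatatc
Cish: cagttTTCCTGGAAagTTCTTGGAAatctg
Csn2: tcacgtagacTTCTTGGAAttgaagggact
The second Cish copy and the Csn2 copy have the same 9 letters. A match of letters describes the sequence and is not evidence of binding.

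Elf5 was the most abundant of the 8 transcripts in 9 of 9 libraries, and the deposited confidence bounds of Elf5 lay apart from those of the next gene in all 9. Its FPKM was 142, 113, 19.3 and 46.4 in high fat diet 1 to 4, and 250, 69.8, 203, 270 and 65.3 in control diet 1 to 5. High fat diet 3 and 4 lay below every control diet library, and high fat diet 1 and 2 lay within the control diet range. Elf5 (ENSMUSG00000027186) lies on chromosome 2, plus strand, at 103411688 to 103450989 (GRCm38). It stood 13.9 to 30.01 times above the second gene of the set, which was Stat5a in 8 libraries and Socs2 in control diet 5. Among the 1847 genes listed in all 9 libraries, Elf5 stood between the 88.4th and the 94.6th percentile of level in every library.

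**Figure D1:**
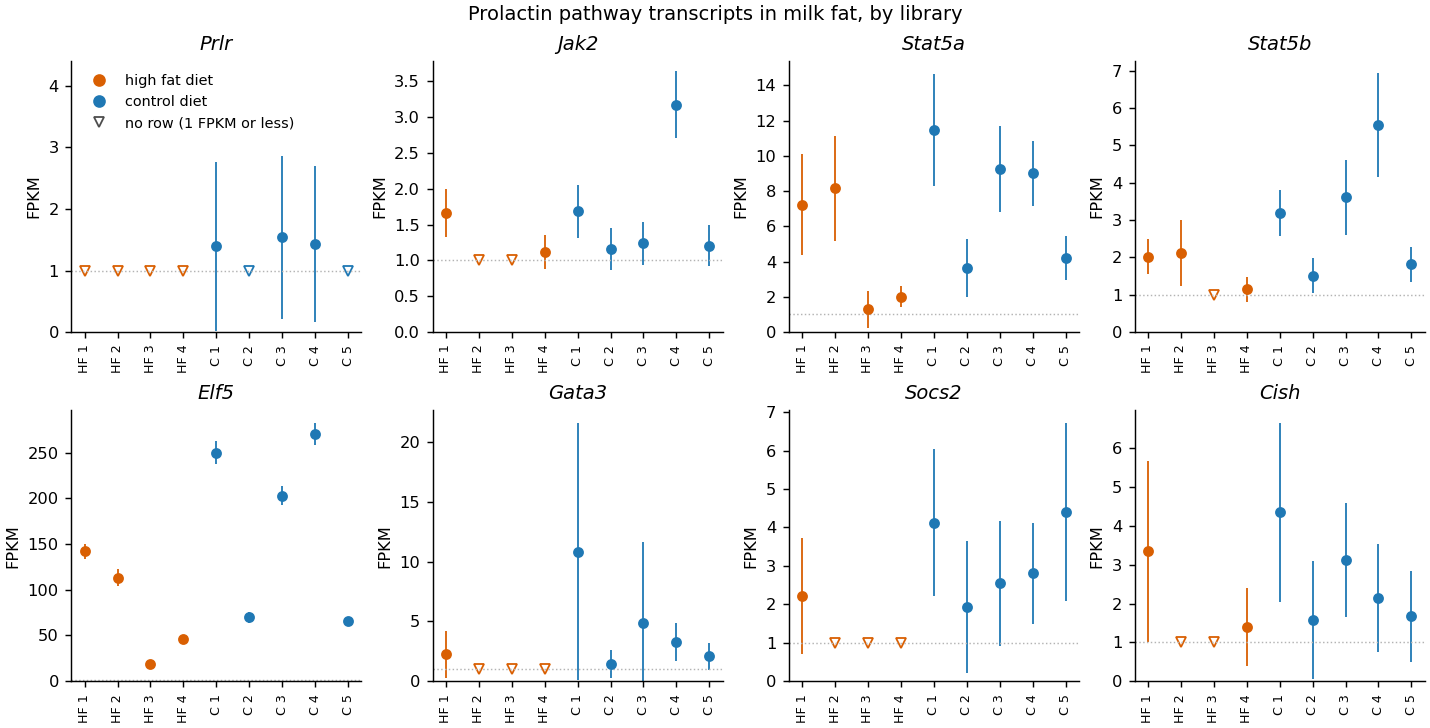
FPKM of the 8 genes in each library (HF, high fat diet; C, control diet; digits are replicates). Points are the deposited FPKM, bars the authors' confidence bounds, and open triangles at 1 FPKM mark libraries with no row. Elf5 reached 270 FPKM in control diet 4, while Prlr had a row in 3 libraries, all control diet.

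The STAT5 genes were listed at far lower levels than Elf5. Stat5a, the main STAT5 of mammary epithelium, had 7.24, 8.15, 1.28 and 2.005 FPKM in high fat diet 1 to 4, and 11.5, 3.64, 9.24, 9.003 and 4.21 FPKM in control diet 1 to 5. The diets overlapped: high fat diet 1 and 2 lay above control diet 2 and 5. Stat5b, its close paralog and the main STAT5 of growth hormone signalling in liver, had 2.02, 2.11 and 1.15 FPKM in high fat diet 1, 2 and 4, was unlisted in high fat diet 3, and had 3.19, 1.51, 3.60, 5.55 and 1.82 FPKM in control diet 1 to 5. High fat diet 4 was the only listed Stat5b value below every control diet value. Jak2, the kinase bound to the receptor, had 1.66 and 1.12 FPKM in high fat diet 1 and 4, was unlisted in high fat diet 2 and 3, and had 1.68, 1.17, 1.24, 3.17 and 1.20 FPKM in control diet 1 to 5. Jak2 therefore stood close to the 1 FPKM limit everywhere except in control diet 4.

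The split of fragments between Stat5a and Stat5b is uncertain, because the genes share stretches of coding sequence. They are neighbours on chromosome 11: Stat5a at 100859351 to 100885169 on the plus strand and Stat5b at 100780731 to 100850724 on the minus strand (GRCm38). Of the 2330 windows of 50 bases in the Stat5a coding sequence, 608 (26.1%) occur unchanged in that of Stat5b. The longest shared run is 324 bases, at coding positions 571 to 894 of both. The first 60 bases around the start of that run are shown because fragments wholly within the run cannot be assigned to 1 gene. The bases of the run are in capitals after 12 flanking bases, the last of which differs between the genes. The genomic positions are chr11:100874011-100874070 (plus strand) for Stat5a and chr11:100798654-100798713 (minus strand) for Stat5b, read from GENCODE M21 transcripts.
Stat5a: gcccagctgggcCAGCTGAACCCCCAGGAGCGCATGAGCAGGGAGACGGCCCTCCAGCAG
Stat5b: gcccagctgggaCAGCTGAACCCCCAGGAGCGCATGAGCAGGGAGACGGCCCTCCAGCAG
Stat5a also overlaps Stat3, its neighbour on the opposite strand, by 72 bases, and the strand setting of the authors' counting is not given in the sources used here.

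Prlr, the entry point of the pathway, was the least often listed of the 8. It was unlisted in all 4 high fat diet libraries and had 1.39, 1.54 and 1.43 FPKM in control diet 1, 3 and 4, with no row in control diet 2 and 5. The authors' bounds on the value in control diet 1 were 0.020 and 2.76 FPKM. The 3 control diet libraries with a Prlr value are also the 3 with the highest Elf5 as deposited. Control diet 1, 3 and 4 also had the largest scaling factors of all libraries (2.33, 1.78 and 2.12, described further on). After that scaling, Elf5 was highest in high fat diet 2 (137 FPKM), which has no Prlr row. Prlr (chromosome 15, 10177238 to 10349180, plus strand, 12 annotated transcripts) was not tested, because fewer than 4 libraries reached 1 FPKM.

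Gata3 had 2.26 FPKM in high fat diet 1 and was unlisted in high fat diet 2, 3 and 4, and it had 10.8, 1.45, 4.90, 3.28 and 2.09 FPKM in control diet 1 to 5. Its value in high fat diet 1 lay above control diet 2 and 5, so the diets overlapped. The bounds were wide where Gata3 was highest: 0.095 to 21.6 FPKM in control diet 1 and 0 to 11.7 FPKM in control diet 3. Gata3 is on chromosome 2, minus strand, at 9857078 to 9890034.

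The feedback inhibitors were low as well. Socs2 (chromosome 10, minus strand), a brake on growth hormone and prolactin receptor signalling, had 2.22 FPKM in high fat diet 1 and was unlisted in high fat diet 2, 3 and 4, against 4.13, 1.94, 2.54, 2.81 and 4.405 FPKM in control diet 1 to 5. High fat diet 1 lay above control diet 2. Cish (chromosome 9, plus strand), an immediate STAT5 target in many cytokine-stimulated cells, had 3.34 and 1.40 FPKM in high fat diet 1 and 4, was unlisted in high fat diet 2 and 3, and had 4.35, 1.58, 3.11, 2.15 and 1.67 FPKM in control diet 1 to 5. High fat diet 1 was higher for Cish than every control diet library but control diet 1. The annotated antisense transcript Gm17041 overlaps Cish and was listed in 1 library.

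The number of the 8 genes listed was 7, 3, 2 and 5 in high fat diet 1 to 4, and 8, 7, 8, 8 and 7 in control diet 1 to 5. The mean was 4.25 ± 2.22 (SD, n = 4) on the high fat diet and 7.60 ± 0.548 (SD, n = 5) on the control diet, a difference of -3.35 genes with an exact 2-sided permutation p of 0.0238. High fat diet 1 reached the low end of the control diet range and the other 3 high fat diet libraries lay below it. Members listed moved with the number of genes listed over the whole table. That number averaged 5040 on the high fat diet and 8386 on the control diet (exact permutation p = 0.0159). The difference in members is therefore not read as a result about this set. What part the whole-table difference has in it was not tested. With 1 library left out, the exact permutation p ran from 0.0179 to 0.0857. The difference was -0.50 genes (exact permutation p = 0.444) when a level of at least 5 FPKM was required in place of a row.

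In the fit over all genes as deposited (limma on log2(FPKM + 1), Benjamini-Hochberg adjustment over 7983 tested genes), Socs2 and Gata3 were lower on the high fat diet, 2 of the 7 members tested, and 0 were higher. Of all 7983 tested genes 20.8% were called lower and 0 were called higher, with 5 higher at an unadjusted p under 0.05, so 2 calls in 7 is close to the background and is not a result about this set. Gata3 had a log2 fold change of -1.80 (SE 0.52, adjusted p = 0.0244) and Socs2 one of -1.60 (SE 0.49, adjusted p = 0.0288). Limma lost the Gata3 call when control diet 1 or 3 or high fat diet 2, 3 or 4 was left out, and the Socs2 call when control diet 3, 4 or 5 or high fat diet 2, 3 or 4 was left out, with an adjusted p up to 0.105 for both. Without high fat diet 1, Jak2 and Cish were called lower as well (limma adjusted p = 0.0349 and 0.0182). Of the 8 secretory luminal markers, Krt18, Epcam and Cldn3 were lower in the same fit, and the others were not called. The part of cell content in the Gata3 and Socs2 calls was not tested. None of the 7 tested members had diets that did not overlap, against 11.1% of all tested genes. In bulk RNA, fewer contributing cells and less RNA per cell cannot be told apart.

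The other 5 tested members did not pass the threshold of 0.05. Their log2 fold changes were -1.21 for Elf5 (SE 0.88, adjusted p = 0.216), -0.93 for Cish (SE 0.50, adjusted p = 0.117), -0.88 for Stat5b (SE 0.52, adjusted p = 0.145), -0.76 for Jak2 (SE 0.46, adjusted p = 0.152) and -0.73 for Stat5a (SE 0.62, adjusted p = 0.277), all from limma. The median of all tested genes was itself -1.08. Relative to that median, Elf5 stood at -0.13, Socs2 at -0.52 and Gata3 at -0.72, while Jak2, Stat5a, Stat5b and Cish stood at 0.32, 0.35, 0.20 and 0.14. Because of the added 1, these fold changes are compressed at low FPKM, where every tested member but Elf5 lies.

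**Figure D2:**
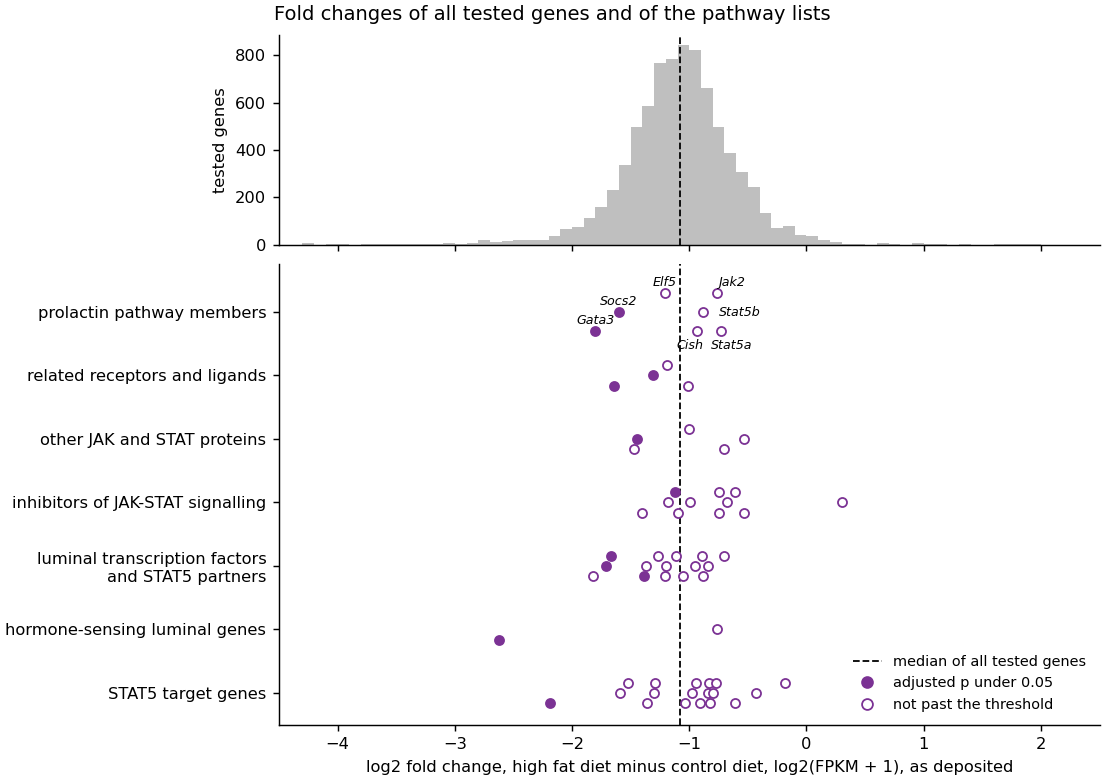
Upper panel, log2 fold changes (high fat diet minus control diet, log2(FPKM + 1), as deposited) of the 7983 tested genes. Lower panel, the same for tested genes of the 8-gene set and of 6 related lists, filled where the adjusted p was under 0.05. The dashed line marks the median of all tested genes, -1.08, and the 7 tested members lie between -1.80 and -0.73.

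**Figure D3:**
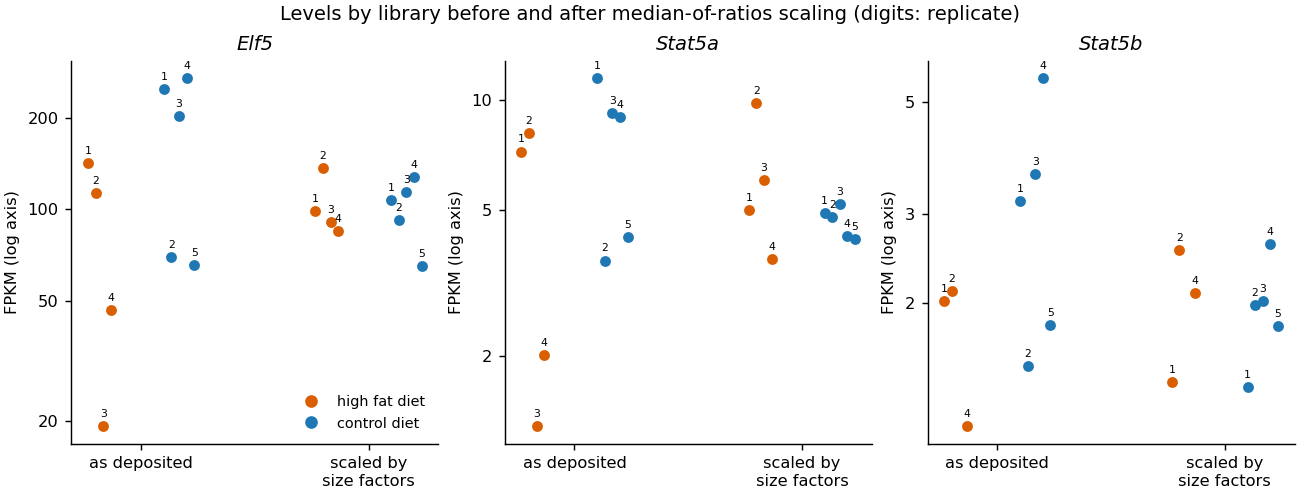
FPKM of Elf5, Stat5a and Stat5b in each library as deposited and after median-of-ratios scaling (log axes, high fat diet left of control diet, digits are replicates; Stat5b has no row in high fat diet 3). The 14.01-fold range of Elf5 as deposited became a 2.11-fold range after scaling.

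Scaling each library by its median ratio over the 1847 genes listed in all 9 libraries drew the Elf5 values together. The scaling factors were 1.44, 0.830, 0.213 and 0.546 for high fat diet 1 to 4, and 2.33, 0.759, 1.78, 2.12 and 1.01 for control diet 1 to 5. Scaled Elf5 was 98.5, 137, 90.5 and 85.1 FPKM in high fat diet 1 to 4, and 107, 91.9, 114, 127.5 and 64.9 FPKM in control diet 1 to 5. The diets overlapped, with means of 102.7 ± 23.3 (SD, n = 4) on the high fat diet and 101.1 ± 24.0 (SD, n = 5) on the control diet, and an exact permutation p of 0.897. The standard deviation of log2 Elf5 over the 9 libraries was 1.26 as deposited and 0.326 after scaling, and that of the median gene was 1.185 as deposited and 0.442 after scaling. Of the 1847 genes, 24.8% had a smaller scaled spread than Elf5.

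Stat5a had a range that was 8.93-fold as deposited and 2.68-fold after scaling. Scaled Stat5a was 5.02, 9.82, 6.03 and 3.67 FPKM in high fat diet 1 to 4, and 4.92, 4.80, 5.20, 4.25 and 4.18 FPKM in control diet 1 to 5. High fat diet 2 and 3 stood above all 5 control diet libraries and high fat diet 4 below them. The high fat diet values were the more spread: 6.14 ± 2.64 (SD, n = 4) against 4.67 ± 0.439 (SD, n = 5), exact permutation p = 0.302. The place of high fat diet 3 is uncertain. Its deposited value of 1.28 FPKM, with bounds of 0.219 and 2.35 FPKM, was divided by a factor of 0.213. Scaled Stat5b ran from 1.40 to 2.55 FPKM in the 3 high fat diet libraries that list it and from 1.37 to 2.62 in the 5 control diet libraries. With this scaling the limma log2 fold changes were 0.03 for Elf5 (adjusted p = 0.937) and 0.27 for Stat5a (adjusted p = 0.593), positive where they were negative as deposited. Those of Gata3 and Socs2 were -1.44 and -1.31 (adjusted p = 0.161 each), and limma called 0 of all genes after scaling, where an unadjusted p under 0.05 was reached by 1600 genes lower and 53 genes higher.

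The low members meet a limit that differs between libraries. After scaling, 1 FPKM corresponds to 0.694, 1.20, 4.69 and 1.83 in high fat diet 1 to 4, and to 0.429, 1.32, 0.562, 0.472 and 0.993 in control diet 1 to 5. A transcript at the scaled level of the control diet could therefore have no row in high fat diet 3 while having one in control diet 1. The 8 genes had 55 listed values of 72, with 15 unlisted values on the high fat diet and 2 on the control diet. In 2 of those 15, Socs2 and Gata3 in high fat diet 2, the limit lay below every scaled control diet level, whose minimum was 1.32 for Socs2 and 1.55 for Gata3. In the other 13, at least 1 scaled control diet level lay below the limit.

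**Figure D4:**
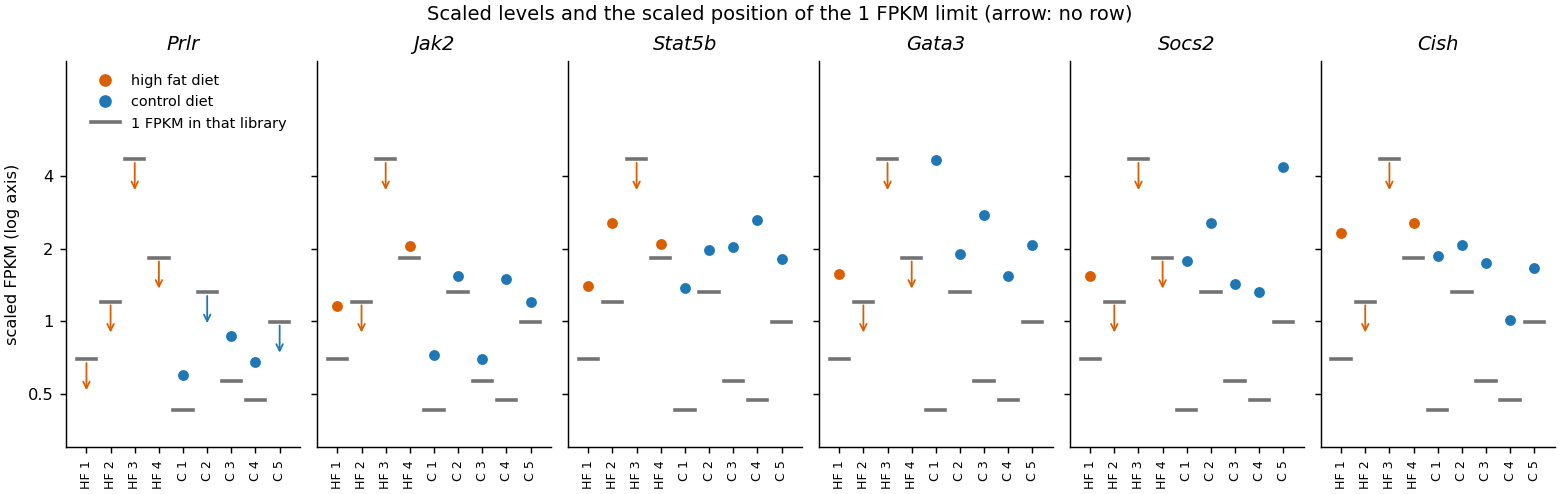
Scaled FPKM (log axis) of the 6 genes with unlisted values, by library. Grey bars show where 1 FPKM lies in that library after scaling, and arrows mark libraries with no row. The bar of high fat diet 3, at 4.69, lies above every plotted level.

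With every unlisted gene set to 1 FPKM and no scaling, limma kept the Gata3 call (log2 fold change -1.51, adjusted p = 0.0466) and Socs2 missed the threshold (-1.31, adjusted p = 0.0548). With unlisted genes at 1 FPKM and scaling both applied, the limma log2 fold change was -0.25 for Gata3 (adjusted p = 0.868) and -0.05 for Socs2 (adjusted p = 0.980), with a median of 0.26 over all tested genes. There 0 genes were called, and 157 genes were lower and 285 higher with unadjusted p under 0.05. This last setting was chosen after seeing the data. High fat diet 1, the only high fat diet library with rows for Gata3 and Socs2, also had rows for 4 of 7 neutrophil markers, which summed to 94.4 FPKM there, to 0 in high fat diet 2, 3 and 4 and to 4.44 to 14.3 in the control diet libraries. The macrophage markers summed to 5.51, 1.16, 23.9 and 0 FPKM in high fat diet 1 to 4 and to 1.08 to 6.44 in the control diet libraries, with Csf1r, Adgre1 and Mrc1 unlisted in all 9. The part of these cells in the 2 genes was not tested. GATA3 also marks T cells. The 7 T and B cell markers were unlisted in every library, which means 1 FPKM or less. A T cell part in Gata3 was not tested.

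Ratios within a library do not depend on its scaling. The Elf5 to Stat5a ratio was 19.6, 13.9, 15.0 and 23.2 in high fat diet 1 to 4, and 21.8, 19.2, 22.0, 30.01 and 15.5 in control diet 1 to 5, with geometric means of 17.6 and 21.2. The log2 difference was -0.27 (exact permutation p = 0.262), less than the spread between libraries of a diet. Stat3, which in the mammary gland drives involution after weaning where STAT5 sustains lactation, had a ratio to Stat5a of 1.497, 0.546, 0.932 and 1.53 in high fat diet 1 to 4, and of 0.938, 2.65, 1.02, 2.14 and 3.94 in control diet 1 to 5. Its geometric means were 1.04 on the high fat diet and 1.84 on the control diet, with overlapping diets and an exact permutation p of 0.175. Both of these ratios were chosen after seeing the data.

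For the feedback inhibitor Cish, the ratio uses the 2 high fat diet libraries that list it. The Cish to Stat5a ratio was 0.462 and 0.697 in high fat diet 1 and 4, both above the 5 control diet values, which ran from 0.239 to 0.433. The log2 difference was 0.70 and the exact permutation p was 0.0952, where 2 against 5 libraries can reach 0.0476 at the smallest. The high fat diet libraries that do not list Cish are not part of this ratio, so its high fat diet values come from the libraries where Cish was above 1 FPKM. With 1 added to both values, so that all 9 libraries enter, the log2 difference turned to -0.21 (exact permutation p adjusted over the 6 ratios = 0.841). The Stat5b to Stat5a ratio averaged 0.346 on the high fat diet (n = 3) and 0.412 on the control diet (n = 5; geometric means, exact permutation p = 0.429). Socs2 to Stat5a was 0.307 in the 1 high fat diet library and averaged 0.444 over 5 control diet libraries, and Gata3 to Elf5 was 0.0159 in that library and averaged 0.0243, both with an exact permutation p of 0.5 where 0.167 is the smallest possible. Adjusted over the 6 ratios that could be compared, all had a p of 0.5. Stat5a stood 5.999 to 8.23 times above Prlr, and Elf5 132 to 189 times, in the 3 control diet libraries that list the receptor.

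**Figure D5:**
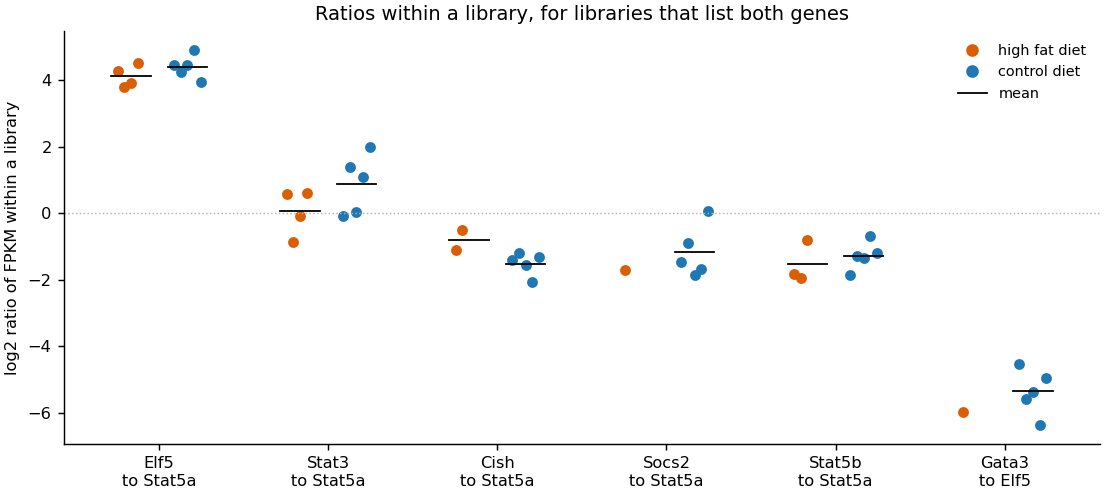
Log2 ratio of FPKM within a library for 6 pairs of genes, high fat diet left of control diet, with the mean as a line where more than 1 library lists both genes. The 2 high fat diet values of Cish to Stat5a lie above the 5 control diet values, a direction that turned to -0.21 with all 9 libraries and a pseudocount, and the other pairs overlap.

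Related genes of the pathway came from 6 lists with 86 genes, of which 55 were tested. Limma called 9 of the 55 lower (16.4%) and 0 higher, again close to the 20.8% of all tested genes. The count was 34 without high fat diet 1, 0 without high fat diet 2 or 3 or control diet 3, 2 without high fat diet 4 or control diet 4, 5 without control diet 1 and 1 without control diet 5, and after scaling it was 0. Among receptors and ligands, 4 of 14 genes were tested, with a median log2 fold change of -1.25 against -1.08 for all genes. The growth hormone receptor Ghr, which also signals through JAK2 and STAT5, was lower at -1.64 (adjusted p = 0.0376): it had 4.43 and 2.14 FPKM in high fat diet 1 and 4, none listed in high fat diet 2 and 3, and 3.86 to 8.83 FPKM in the control diet libraries. The epidermal growth factor receptor Egfr was lower at -1.31 (adjusted p = 0.0420). It was listed in 1 high fat diet library and 4 control diet libraries, so it was tested only through its control diet values. The insulin receptor Insr and the interleukin 4 receptor chain Il4ra did not pass, with values of -1.19 and -1.01. Prl, the prolactin gene itself, Epor and Erbb4 were unlisted in all 9 libraries.

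Among JAK and STAT genes outside the set, Stat3 had a log2 fold change of -1.47 (limma adjusted p = 0.0728), the kinase Jak1 -1.0 and Stat6, which signals for interleukin 4, -0.70, none of these 3 past the threshold. The median of this list was -1.0 as deposited and -0.26 after scaling with unlisted genes at 0. All tested genes then had -0.55. With unlisted genes at 1 FPKM and the same scaling they had 0.26, a setting in which the median of the list was not taken. Stat3 was listed in all 9 libraries, at 1.20 to 10.8 FPKM on the high fat diet and 9.41 to 19.2 FPKM on the control diet.

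Of 11 tested inhibitors of JAK-STAT signalling, 1 was lower, where 20.8% of all tested genes were. It was Cbl, a ubiquitin ligase that marks activated receptors for turnover, at -1.12 (adjusted p = 0.0434). It was unlisted in all 4 high fat diet libraries and in control diet 4, and had 1.15 to 2.51 FPKM in the other control diet libraries. Cbl was therefore tested only through its control diet values. The phosphatase Ptpn2 (-1.40, adjusted p = 0.0595) and the feedback inhibitors Socs3 (-1.18, adjusted p = 0.0605) and Socs6 (-0.99, adjusted p = 0.0771) did not pass. The median was -0.75.

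Transcription factors and STAT5 partners of the luminal lineage had 15 tested genes, with a median of -1.20. Of these 3 were lower, close to the 20.8% of all tested genes. The coactivators Ep300 (-1.71, adjusted p = 0.0252) and Med1 (-1.39, adjusted p = 0.0341) and the luminal factor Cebpb (-1.67, adjusted p = 0.0379) passed the threshold. Ep300 and Med1 were listed in high fat diet 1 alone among the high fat diet libraries, like Gata3 and Socs2. They too were tested only through their control diet values. Id2, which had the highest mean of the list over all 9 libraries and is needed for alveolar growth in the mouse, had -1.82 (adjusted p = 0.0521). On the high fat diet alone the epithelial ETS factor Ehf had the higher mean, 10.4 FPKM against 7.28 FPKM for Id2. Hormone-sensing luminal genes were scarce: Pgr, Foxa1, Areg, Tnfsf11, Wnt4 and Cited1 were unlisted in all 9 libraries, Esr1 had -0.76 (adjusted p = 0.125), and Ly6a, a surface antigen also found on several other cell types, was lower at -2.62 (adjusted p = 0.0232).

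STAT5 target genes were the most abundant group, and 1 of 18 tested was lower, where 20.8% of all tested genes were. Abundant genes of the list had a larger SE, such as 0.91 for Csn2 against 0.58 for Bcl2l1. The count is therefore not read as a result about the list. That gene was Bcl2l1, which encodes the survival factor BCL-XL, at -2.19 (adjusted p = 0.0186): it had 4.57 and 1.20 FPKM in high fat diet 1 and 4, none listed in high fat diet 2 and 3, and 4.01 to 19.2 FPKM in the control diet libraries. Pim1 (-1.36), Cel (-1.59) and Bcl6 (-0.80) did not pass, with adjusted p of 0.0752, 0.105 and 0.111. Csn1s2b, a casein gene with the highest mean of the list over all 9 libraries, had 1571 to 30640 FPKM on the high fat diet and 6552 to 14992 FPKM on the control diet, with a log2 fold change of -0.61 (adjusted p = 0.488). On the control diet alone Wap, the whey acidic protein gene, had the higher mean, 13352 FPKM against 11873 FPKM for Csn1s2b. The median of the list was -0.93 as deposited. After scaling, with unlisted genes at 0, it was 0.07, with 10 of 18 genes positive, where all tested genes had -0.55. That median of all tested genes depends on the value given to unlisted genes. With unlisted genes at 1 FPKM and the same scaling it was 0.26. The median of the list was not taken in that setting, so the list is not shown to differ from other genes.

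The genes whose profile over the 9 libraries was most like that of a member were sought among 6912 tested genes, by the root mean squared difference of log2(FPKM + 1) after centring each gene. For Elf5 they were Gpx1 (0.107), Ndufa9 (0.154) and Ptma (0.157), where the Elf5 profile itself deviates by 1.17 from its mean. Gpx1 had 21.1 to 153 FPKM on the high fat diet and 77.8 to 312 FPKM on the control diet. For Stat5a they were Ebna1bp2 (0.0971), Osbpl1a (0.126) and Pdf (0.138), for Stat5b Cpped1 (0.146), Cdc42se1 (0.147) and Vps53 (0.169), for Jak2 Spast (0.123), Fuca1 (0.142) and Prkrir (0.161), and for Cish Asah1 (0.162), Ate1 (0.175) and Tln2 (0.181). None of the 15 genes named is a member of the set. Stat5a ranked 873 in likeness to Elf5 as deposited and 232 after scaling. These distances share the library-wide shifts described above.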

How the data were processed

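Total RNA from milk fat was sequenced with a stranded total RNA kit, per the labels' protocols. Each library has 1 table in which the authors deposited FPKM and its confidence bounds for every gene above 1 FPKM, per the file headers. Trimmomatic, FastQC, TopHat, Bowtie2, Cufflinks, DESeq2 and HTSeq are named in the submitters' processing notes. Neither their versions and roles nor a genome build is given in the sources used here. Counts were not used, and depth is relative, from the squared ratio of FPKM to its bound-derived standard deviation.

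Of 11206 gene identifiers, 11165 were found in GENCODE M21 (GRCm38) and 9293 had the same bounds after adding 1 to the start. For 6 repeated identifiers the highest FPKM was kept, and 2 blank rows were left out. The diets were compared with limma 3.58.1 (R 4.3.3), with diet as the term, a mean-variance trend, log2(FPKM + 1) values and unlisted genes at 0, over 7983 genes with at least 1 FPKM in at least 4 libraries, with Benjamini-Hochberg adjustment and a threshold of 0.05. Single values were compared by exact 2-sided permutation tests over the libraries, where 4 against 5 gives 126 arrangements and a smallest p of 0.00794. Related genes named are up to 4 tested per list with the smallest p and the most abundant, of which 1 gene is not reported here. For each member listed in at least 7 libraries, the 3 most alike genes are named. The members, lists and tests were chosen with earlier results of these data known. Alternatives covered the pseudocount, the filter, the value of unlisted genes, scaling, library weights, a replicate block and leaving out libraries.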

Additional observations from a re-analysis of the deposited data

Results flagged for a closer look

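Jak2 in control diet 4 stood apart from the other control diet libraries, with 3.17 FPKM in that library against 1.17 to 1.68 FPKM in the other 4, a gap of 0.741 of the whole range. Its bounds in that library were 2.70 and 3.64 FPKM. After scaling, Jak2 was 1.496 FPKM in control diet 4 and 0.697 to 1.54 FPKM in the other 4 control diet libraries, so it no longer stood apart. In 17 sets of values examined this way, chance flags about 1 in 20.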

How the results depend on the processing

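The calls depend on the kind of scaling and on single libraries, and the cause was not tested. Genes called lower numbered 1662 as reported, and 145 with a pseudocount of 0.1, 766 with unlisted genes at 1 FPKM, 13 without a filter, 15 among genes listed in all 9 libraries, 6714 with array weights, 11 without the mean-variance trend, and 0 with median-of-ratios scaling, quantile normalization, a covariate for how many genes each library lists, or high fat diet 2 and 3 both left out. At an unadjusted p under 0.05, limma gave 1600, 464, 265 and 1050 genes lower under those 4 settings. Members called lower numbered 2 as reported, 1 with unlisted genes at 1 FPKM, 6 with array weights and 0 under each of the other settings just named. Gata3 and Socs2 are not tested among genes listed in all 9 libraries, so the 0 there was fixed beforehand. Other pathway genes called lower numbered 9 as reported, 6 with unlisted genes at 1 FPKM, 41 with array weights, and 0 under each of the rest. None of those 9 is listed in all 9 libraries, so that setting could not keep their calls. Scaling every library to 1 sum gave 1461 genes, 2 members and 8 other pathway genes as lower, and a pseudocount of 0.5 gave 1347, 2 and 7.

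Leaving out 1 library at a time gave 16 (without high fat diet 3) to 5215 genes (without high fat diet 1), 0 to 4 members and 0 to 34 other pathway genes called lower. The single-gene calls that changed are given above. The difference in members listed was -4.27 to -2.60 genes with 1 library left out (exact permutation p = 0.0179 to 0.0857), -2.0 (p = 0.238) at 2 FPKM or more and -0.50 (p = 0.444) at 5 FPKM or more.

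Signs turned for members that were not called. Stat5a was at 0.27 with median-of-ratios scaling, 0.42 with quantile normalization, 0.42 with the covariate and 0.31 with scaling and unlisted genes at 1 FPKM, and Elf5 was at 0.03, 0.19, 0.49 and 0.03 under the same 4 settings. Jak2 was at 0.14 with quantile normalization, 0.00 with the covariate and 0.84 with scaling and unlisted genes at 1 FPKM. Stat5b was at 0.11 and 0.35, and Cish at 0.21 and 0.57, under the last 2. The log2 difference of the Stat5b to Stat5a ratio was 0.04 with unlisted genes at 1 FPKM, and that of Cish to Stat5a was -0.21 with a pseudocount. The ratios to Prlr have no high fat diet value and no alternatives. Of 295 alternative values, 176 kept their direction and side of the threshold or moved by less than the limits set.

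A replicate block called 29 genes lower, 0 members and 0 other pathway genes. The labels do not say that the numbers pair the dams. After centring within each diet, same-numbered libraries had correlations of 0.14, -0.28, 0.04 and -0.09, and other pairs ran from -0.28 to 0.31. So few values cannot show whether dams were paired. The squared ratio of FPKM to its bound-derived standard deviation was low for Prlr, Gata3, Socs2 and Cish, 2.09 to 18.5 per listed value. It is not a count of fragments. For Gata3 it was 4.07 at 10.85 FPKM in control diet 1 and 16.8 at 3.28 FPKM in control diet 4. It was also low for Stat5a in high fat diet 3, at 5.81. Jak2 and Stat5b had 23.2 to 182, and are limited by the 1 FPKM minimum of the tables. The number of dams, 4 and 5, limits every test. The tests set the diet difference against the spread between libraries, 1 per dam, in which dam and library differences cannot be told apart.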
